A study of Mus musculus with 8 samples.

Results

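The genes described are the 2 mouse hepcidin genes (Hamp and Hamp2) and 8 genes that sense, carry, take up, store or export iron in liver (Bmp6, Hfe, Tfr2, Trf, Tfrc, Fth1, Ftl1 and Slc40a1). They were chosen by symbol, as 10 of the 46517 Ensembl genes in a table of read counts, and all 10 passed the filter on low counts. Unsorted liver tissue of 4 MøFoxO1-KO mice and 4 WT littermates was compared by RNA-Seq, with RNA prepared from aliquots of the tissue. Mice of both groups carried FoxO1 alleles flanked by loxP sites (FoxO1 loxP/loxP), and MøFoxO1-KO mice also carried Cre recombinase under the Lyz2 promoter, which is active in myeloid cells throughout the body and is not restricted to liver macrophages. WT littermates had no Cre. Animals of both groups were male C57BL/6 mice that began a NASH diet at 6 weeks of age, stayed on it for 25 weeks, and were 31 weeks old and fasted for 16 hours when liver was taken. No chow-fed group is part of this comparison, so each value belongs to the liver of a fasted mouse on the NASH diet.

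Hepcidin is a peptide hormone that hepatocytes secrete, and it removes the iron exporter ferroportin from the surface of macrophages, enterocytes and hepatocytes. Its transcription is raised by BMP ligands from sinusoidal endothelial cells acting through SMAD proteins, with Hfe and Tfr2 as sensors of iron-loaded transferrin, and by IL-6 acting through STAT3. Inside cells, iron regulatory proteins bind a hairpin called the iron-responsive element when iron is scarce, which stabilises the mRNA of the transferrin receptor Tfrc and blocks translation of ferritin, so ferritin output can change without a change in ferritin mRNA.

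The 2 hepcidin genes are neighbours on the minus strand of chromosome 7. Hamp (ENSMUSG00000050440) spans chr7:30942371-30944017 on GRCm38 and Hamp2 (ENSMUSG00000056978) spans chr7:30922372-30924181. Their transcripts are 92.4% identical and share an unbroken run of 87 bases, and their coding sequences, 252 bases each, differ at 16 positions. Of those 16 differences, 14 lie in the last 25 codons before the stop, at the end of the coding sequence that encodes the mature hormone. These stretches are shown because they are where reads of the 2 genes can best be told apart, with the differing bases in capitals (GRCm38, chr7:30942480-30942554 and chr7:30922511-30922585, minus strand).
Hamp: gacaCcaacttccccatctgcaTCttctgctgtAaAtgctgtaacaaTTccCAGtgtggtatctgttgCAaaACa
Hamp2: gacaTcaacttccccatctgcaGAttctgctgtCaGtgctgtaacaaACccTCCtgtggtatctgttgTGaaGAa

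The promoters are shown because they were searched for the letters of the 2 signalling inputs, GGCGCC, the core of the BMP-responsive element, and TTCNNNGAA, a STAT site. Both words read the same on either strand and they do not overlap each other in Hamp. The sequences run from base -150 to base -51 relative to the RefSeq start (GRCm38.p6, minus strand, chr7:30944080-30944179 for Hamp and chr7:30924232-30924331 for Hamp2), with matches in capitals.
Hamp promoter: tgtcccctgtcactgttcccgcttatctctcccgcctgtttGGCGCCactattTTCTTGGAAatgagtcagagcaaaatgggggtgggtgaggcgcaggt
Hamp2 promoter: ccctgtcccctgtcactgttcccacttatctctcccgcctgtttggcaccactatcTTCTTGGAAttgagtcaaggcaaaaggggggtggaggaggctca
In Hamp the BMP word began at -109 and the STAT word at -97, and in Hamp2 the STAT word began at -94. The letters GGCGCC were not found in the 300 bases of the Hamp2 promoter. Over 32851 RefSeq promoters of 300 bases, 11.9% held GGCGCC, 8.3% held TTCNNNGAA and 0.645% held both. Of the 8 iron genes with a promoter in the RefSeq table, GGCGCC was present in Hamp and Tfrc, TTCNNNGAA in Hamp and Hamp2, and both only in Hamp. A match is a description of letters and was not tested as a binding site.

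Total counts per mouse ranged from 15253218 to 18025481, and normalized counts are counts divided by the TMM-scaled library size relative to the mean of the 8 libraries. Foxo1 itself had 404 ± 73.9 normalized counts in WT and 359 ± 73.4 in MøFoxO1-KO livers (SD, n = 4 each), in a tissue where hepatocytes also express it, so it does not check the labels here. All 8 hepatocyte markers were abundant in every liver, with a summed level of 1064690 to 1537170 in WT and 1267500 to 1884750 in MøFoxO1-KO mice. In whole liver, fewer cells of a type and less RNA per cell cannot be told apart.

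Hamp was the most variable of the 10 genes. WT mice 22, 23, 24 and 25 had 12890, 1736, 174 and 559 normalized Hamp counts, and MøFoxO1-KO mice 26, 27, 28 and 29 had 1.92, 2797, 4289 and 10709. The groups overlapped. The highest liver was a WT liver, and the lowest was MøFoxO1-KO mouse 26, far below the lowest WT liver. In that liver only 2 reads were counted on Hamp, with an exact Poisson interval of 0.242 to 7.22 counts at 95% confidence that covers counting error only. Its library was the deepest of the 8, with 18025481 counts. Even among WT littermates, which share genotype, diet and fasting time, the highest Hamp level was 73.9 times the lowest.

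The mean Hamp level was 3840 ± 6070 normalized counts in WT and 4449 ± 4536 in MøFoxO1-KO livers (SD, n = 4 each). The log2 fold change of MøFoxO1-KO against WT was 0.21 ± 1.46 (SE, Benjamini-Hochberg adjusted P in edgeR = 0.957), and its approximate 95% interval ran from -3.05 to 3.47. Leaving out 1 mouse at a time moved it from -0.70, without MøFoxO1-KO mouse 29, to 2.43, without WT mouse 22, and without the nearly Hamp-free mouse 26 it was 0.62. With this spread, no genotype difference in Hamp was detectable, and the interval includes changes of several-fold in either direction.

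Hamp2, the paralog, did not follow Hamp in every liver. WT mice had 203, 379, 10.2 and 381 normalized Hamp2 counts and MøFoxO1-KO mice had 3.83, 68.1, 108 and 223, in the same order of replicates. MøFoxO1-KO mouse 26 was lowest for both hepcidin genes and WT mouse 24 was next for both, but WT mouse 22, highest for Hamp, was in the middle of the range for Hamp2. The means were 243 ± 176 in WT and 101 ± 92.0 in MøFoxO1-KO livers, which gives a log2 fold change of -1.28 ± 0.96 (SE, Benjamini-Hochberg adjusted P in edgeR = 0.545). The groups overlapped. The value was -2.02 without MøFoxO1-KO mouse 29 and -0.87 without mouse 26.

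Hamp2 supplied a changing share of hepcidin reads. Of the reads counted on either gene it held 1.55%, 17.9%, 5.5% and 40.6% in WT mice 22 to 25. In MøFoxO1-KO mice 27, 28 and 29 the share was 2.38%, 2.46% and 2.04%. In MøFoxO1-KO mouse 26 it was 66.7%, from 4 of 6 reads, with a Wilson 95% interval of 30.0% to 90.3%. The share was high where Hamp was low in 3 livers (WT mice 23 and 25, and MøFoxO1-KO mouse 26) but not in WT mouse 24. Whether the counting step divided reads of the shared stretches between the paralogs is not given in the sources used here, so each gene's own value is uncertain. With the 2 genes added into 1, the log2 fold change was 0.16 (edgeR, Benjamini-Hochberg adjusted P = 0.968).

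**Figure D1:**
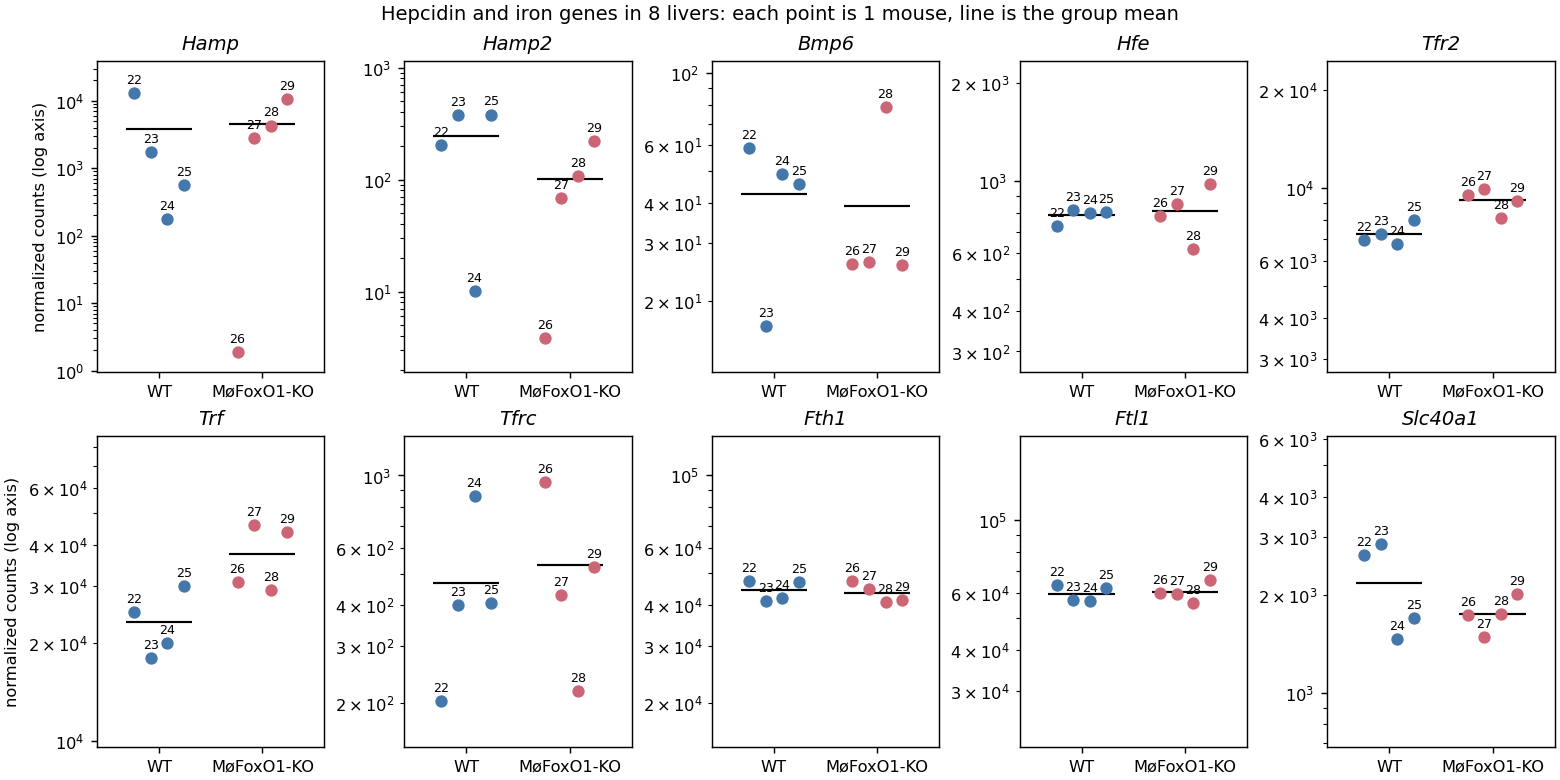
Normalized counts of the 10 iron genes in each liver, on log axes that differ between panels. Each point is 1 mouse with its replicate number and each line is a group mean (4 WT, 4 MøFoxO1-KO). Hamp runs from 1.92 in MøFoxO1-KO mouse 26 to 12890 in WT mouse 22, Fth1 and Ftl1 lie nearly level, and Tfr2 is the panel in which every MøFoxO1-KO point lies above every WT point.

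The upstream genes of hepcidin were steadier than hepcidin. Bmp6 (ENSMUSG00000039004, chr13:38345716-38499728), the endothelial ligand that reports iron loading to hepatocytes, had 59.0, 16.7, 48.9 and 45.8 normalized counts in WT mice and 25.9, 26.3, 78.8 and 25.7 in MøFoxO1-KO mice. A single MøFoxO1-KO liver, mouse 28, was the highest of all, while the other three lay between WT mouse 23 and the remaining WT mice. Bmp6 had a log2 fold change of -0.11 ± 0.48 (SE, Benjamini-Hochberg adjusted P in edgeR = 0.930), or -0.70 when mouse 28 was set aside.

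WT mouse 23, lowest for Bmp6, was also lowest for endothelial markers. Among WT livers it was lowest too for the Kupffer, macrophage and monocyte, stellate, cholangiocyte, neutrophil and lymphocyte sums, though not the erythroid sum. For some of these the next WT liver was close. The cholangiocyte sum was 1310 against 1340 in WT mouse 25, and the macrophage and monocyte sum was 1815 against 1893 there. The neutrophil sum was 51.1 against 60.0 in WT mouse 22. The hepatocyte sum of WT mouse 23, 1537170, was the highest of the WT livers. The 10 markers of sinusoidal endothelial cells summed to 2175 normalized counts in that liver, against 4776 to 6091 in the other WT mice and 4280 to 6972 in MøFoxO1-KO mice. MøFoxO1-KO mouse 28, with the highest Bmp6, also had the highest endothelial sum. MøFoxO1-KO mice 26 and 27 had sums of 5023 and 5992, within the span of the other WT mice, and Bmp6 counts below theirs. Bmp2, another endothelial ligand of the same receptors, named here after its values were seen, had 63.9 normalized counts in WT mouse 23 and 204 to 318 in the other 7 livers. The part of cell composition in these Bmp6 values was not tested.

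Hfe (ENSMUSG00000006611, chr13:23702034-23710854), the protein mutated in classical haemochromatosis, varied little. WT mice had 731, 814, 801 and 803 normalized counts and MøFoxO1-KO mice had 779, 850, 621 and 978, so the MøFoxO1-KO values lay on both sides of the WT range. For Hfe the log2 fold change was 0.04, with an interval from -0.27 to 0.34 (edgeR, Benjamini-Hochberg adjusted P = 0.924).

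Tfr2 (ENSMUSG00000029716, chr5:137569840-137587481), the second transferrin receptor and the hepatocyte's sensor of transferrin saturation, was the one iron gene of the 10 whose groups did not overlap. WT mice had 6963, 7245, 6747 and 8014 normalized counts, and MøFoxO1-KO mice had 9545, 9959, 8100 and 9164. The gap between the highest WT and the lowest MøFoxO1-KO liver was narrow, from 8014 to 8100. The means were 7242 ± 554 and 9192 ± 797 (exact two-sided permutation test, P = 0.0286, the smallest that 4 against 4 mice allow). In edgeR the log2 fold change was 0.34 ± 0.12 (SE), and its unadjusted P of 0.0173 did not pass after correction (Benjamini-Hochberg adjusted P = 0.212). Over all 13278 tested genes, 5.0% had every MøFoxO1-KO mouse above every WT mouse and 4.71% had every one below, so 1 in 10 is near the background.

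Transferrin, the plasma carrier of iron that hepatocytes secrete, showed the larger difference of the pair that passed an unadjusted test. Trf (ENSMUSG00000032554, chr9:103204001-103230444) had 24876, 17986, 20073 and 29962 normalized counts in WT mice and 30804, 46070, 29071 and 43703 in MøFoxO1-KO mice. The groups met at a single crossing, with WT mouse 25 above MøFoxO1-KO mouse 28. The means were 23224 ± 5339 and 37412 ± 8713 (exact two-sided permutation test, P = 0.0571). This is a log2 fold change of 0.69 ± 0.21 (SE), with an interval from 0.21 to 1.17. The correction for all genes was passed in DESeq2 (Benjamini-Hochberg adjusted P = 0.0398) and not in edgeR (Benjamini-Hochberg adjusted P = 0.178). In the 8 fits that each lacked 1 mouse, the value stayed between 0.58 and 0.83.

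Most of the other hepatocyte products looked at lay above 0. Of 8 hepatocyte markers 7 had a positive log2 fold change, with a median of 0.29, from -0.22 for Apob to 1.49 for Serpina1c. Serpina1c passed the correction in edgeR, where 0.294% of all tested genes did. Serpina1c and Apoa1 passed it in DESeq2, beside 4.02% of the genes to which it gave an adjusted P. Both lay above WT in every MøFoxO1-KO mouse (25.0% of the markers, beside 5.0% of all tested genes). Haptoglobin (Hp) and haemopexin (Hpx), the secreted scavengers of haemoglobin and haem, had log2 fold changes of 0.46 and 0.61, and neither passed the correction in edgeR or DESeq2. Ceruloplasmin (Cp), also secreted by hepatocytes, was at -0.33. Whether the Trf and Tfr2 differences are part of a wider shift in hepatocyte RNA was not tested.

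Uptake of transferrin-bound iron by most cells runs through Tfrc (ENSMUSG00000022797, chr16:32608920-32632794). WT mice had 203, 400, 865 and 407 normalized Tfrc counts and MøFoxO1-KO mice had 953, 429, 217 and 525. Each genotype held a liver at the bottom of the range, at 203 or 217, and a liver at the top, at 865 or 953, so the spread lay within the groups. The means were 469 ± 280 in WT and 531 ± 309 in MøFoxO1-KO mice, a log2 fold change of 0.18 with an interval from -0.88 to 1.23 (edgeR, Benjamini-Hochberg adjusted P = 0.883). The value became 0.66 without WT mouse 24 and -0.27 without MøFoxO1-KO mouse 26.

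The genes for uptake, storage and export carry iron-responsive elements, which are shown because they tie the mRNA of Tfrc, and the translation of ferritin and ferroportin, to cell iron. A search of GENCODE M21 transcripts for the loop CAGTGN, closed by 5 base pairs with an unpaired C before them, found 4 elements in the 3′ UTR of Tfrc and 1 in the 5′ UTR of each of Fth1, Ftl1 and Slc40a1. Over 21901 protein-coding genes, 1.34% held such a match anywhere in a transcript. The loops are in capitals, with GRCm38 positions chr16:32631219-32631247, chr16:32631598-32631626, chr16:32631663-32631691 and chr16:32631710-32631738 for Tfrc (plus strand), chr19:9982732-9982760 for Fth1 (plus strand), chr7:45459779-45459807 for Ftl1 (minus strand) and chr1:45925465-45925493 for Slc40a1 (minus strand).
Tfrc element 1: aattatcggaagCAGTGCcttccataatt
Tfrc element 2: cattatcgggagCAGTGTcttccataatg
Tfrc element 3: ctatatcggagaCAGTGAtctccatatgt
Tfrc element 4: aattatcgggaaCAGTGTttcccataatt
Fth1 element: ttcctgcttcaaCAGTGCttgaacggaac
Ftl1 element: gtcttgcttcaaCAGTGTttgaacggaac
Slc40a1 element: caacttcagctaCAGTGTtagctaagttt

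Ferritin mRNA was abundant and nearly constant. Fth1 (ENSMUSG00000024661, chr19:9982703-9985092), the heavy subunit that oxidises iron, had 47308, 41116, 41904 and 47084 normalized counts in WT mice and 47331, 44657, 40836 and 41343 in MøFoxO1-KO mice. Its log2 fold change was -0.03, with an interval from -0.31 to 0.26 (edgeR, Benjamini-Hochberg adjusted P = 0.940). Ftl1 (ENSMUSG00000050708, chr7:45457944-45459884), the light subunit that forms the iron core, had 63071, 56783, 56464 and 61986 in WT mice and 59882, 59549, 55572 and 65667 in MøFoxO1-KO mice. Its log2 fold change was 0.01, with an interval from -0.27 to 0.30 (edgeR, Benjamini-Hochberg adjusted P = 0.968). Across the 8 livers the highest value was 1.16 times the lowest for Fth1 and 1.18 times for Ftl1, the narrowest spreads of the 10 genes. Of 13 other ferritin genes and copies in the table, 1 had over 3 counts in any mouse, and that copy, Ftl1-ps1, held 1331 counts in all, 0.278% of those on Ftl1.

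Since iron-responsive elements act on Tfrc mRNA stability and not on ferritin mRNA level, the Tfrc to Fth1 ratio within each library was also compared, which does not depend on scaling between libraries. The log2 ratio was -6.75 ± 0.93 in WT and -6.55 ± 0.80 in MøFoxO1-KO mice (SD, n = 4 each), a difference of 0.20 (exact two-sided permutation test, P = 0.743). Against Ftl1 the difference was 0.16 (exact two-sided permutation test, P = 0.657). WT mouse 24 and MøFoxO1-KO mouse 26 had the highest ratios and WT mouse 22 the lowest, as for Tfrc alone. The difference was -0.17 without WT mouse 22 and -0.10 without MøFoxO1-KO mouse 26.

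Slc40a1 (ENSMUSG00000025993, chr1:45908068-45926523) encodes ferroportin, the exporter that hepcidin removes, and in liver it is highest in Kupffer cells. WT mice had 2654, 2865, 1458 and 1700 normalized counts and MøFoxO1-KO mice had 1732, 1479, 1747 and 2012. WT mice 22 and 23 were the highest, and the other WT mice lay within or just below the MøFoxO1-KO range. Slc40a1 had a log2 fold change of -0.32 ± 0.22 (SE, Benjamini-Hochberg adjusted P in edgeR = 0.503), which became -0.15 without WT mouse 23. The 8 Kupffer cell markers had positive log2 fold changes with a median of 1.08. None passed the correction in edgeR, where 0.294% of all tested genes did. In DESeq2, 3 of the 8 (Timd4, Marco and Folr2) passed it, beside 4.02% of the genes to which it gave an adjusted P. Their sums were 2223 to 3435 in WT and 2755 to 12622 in MøFoxO1-KO mice. MøFoxO1-KO mouse 29, with the highest Kupffer sum, had 2012 normalized Slc40a1 counts, below WT mice 22 and 23.

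Per kilobase of exon, the levels of the 10 genes spanned the range from storage protein to signalling ligand. Fth1 (51216 ± 3811 normalized counts per kilobase in WT, 50279 ± 3512 in MøFoxO1-KO mice) and Ftl1 (44460 ± 2567 and 44901 ± 3102) stood highest. Hamp (9795 ± 15484 and 11350 ± 11570) and Trf (6995 ± 1608 and 11269 ± 2624) followed and did not differ from each other beyond their spread. Tfr2 came next (1670 ± 128 and 2120 ± 184), and then Hamp2 (557 ± 404 and 230 ± 211), Slc40a1 (241 ± 77.1 and 194 ± 24.2) and Hfe (220 ± 10.7 and 226 ± 41.8), whose ranges overlapped. Tfrc (75.8 ± 45.3 and 85.8 ± 49.99) and Bmp6 (17.7 ± 7.54 and 16.3 ± 10.95) were lowest. All are SDs over 4 mice. Lengths are of all annotated exons of a gene together. For Slc40a1 this is 9000 bases, while its transcript searched for iron-responsive elements has 3370, so its place in this order depends on the length used.

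Counted together, 0 of the 10 genes passed the edgeR test at a Benjamini-Hochberg adjusted P under 0.05, where 0.294% of 13278 genes did, and so 0 passed the stricter call with an absolute log2 fold change over 1.5, where 0.188% did. At an unadjusted P under 0.05 edgeR named 2 of 10, Trf and Tfr2, beside 16.7% of all tested genes. DESeq2 named 1 of 10, Trf, at a Benjamini-Hochberg adjusted P under 0.05, beside 4.02% of the 14473 genes to which it gave one. Of the log2 fold changes 6 were above 0 and 4 below, with a median of 0.02 beside -0.01 over all tested genes.

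**Figure D2:**
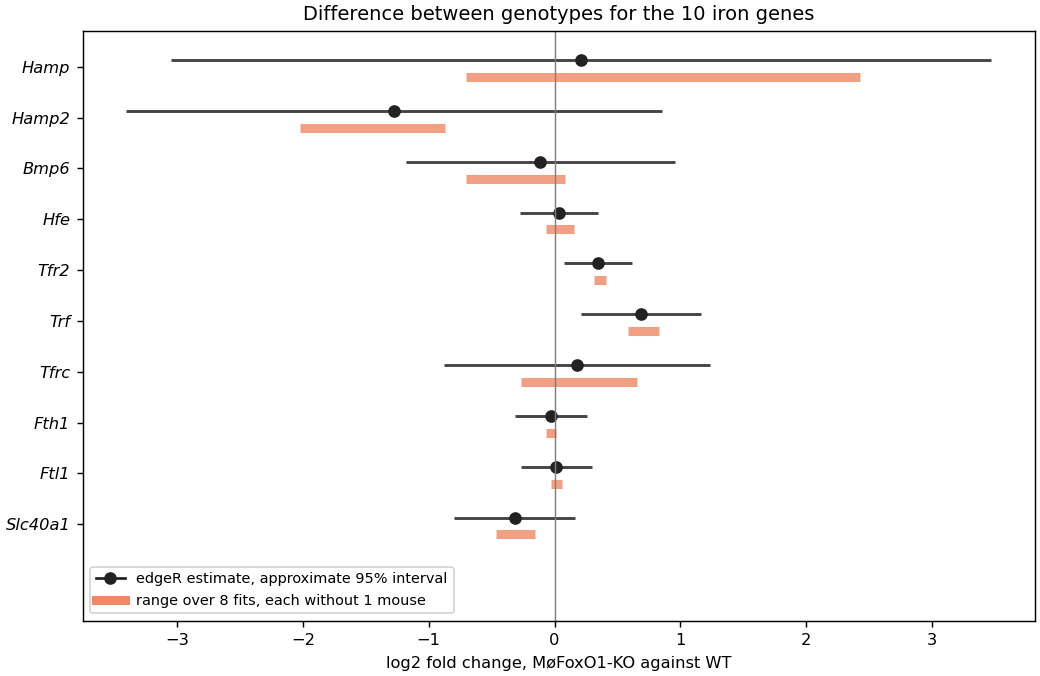
Log2 fold change of each iron gene, MøFoxO1-KO against WT, with its approximate 95% interval (black, edgeR, 4 mice a group) and the range over 8 fits that each leave out 1 mouse (orange). The Hamp interval runs from -3.05 to 3.47, the Fth1 and Ftl1 intervals stay within 0.31 of 0, and only the Tfr2 and Trf intervals do not include 0.

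Across mice, the Hamp level went with that of some BMP target genes. Of 6 genes compared with Hamp over the 8 livers on log2 normalized counts, 3 passed by Pearson's r. The test was an exact permutation with Benjamini-Hochberg adjustment over the 6. Id1, a direct BMP and SMAD target, had 451, 87.5, 91.4 and 94.6 normalized counts in WT mice and 60.4, 165, 212 and 275 in MøFoxO1-KO mice. The liver with the most Hamp had the most Id1, and the liver with 2 Hamp reads had the least. Pearson's r was 0.83 (exact permutation P = 0.00719, adjusted 0.0432) and Spearman's rho was 0.93 (exact permutation, adjusted P = 0.0134).

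The relation of Hamp with Id1 held in size when mice were left out. Pearson's r was 0.81 over 6 mice without the pair farthest from the Id1 median, WT mouse 22 and MøFoxO1-KO mouse 29 (exact permutation P = 0.0361, adjusted 0.217). It was 0.88 over 7 mice without MøFoxO1-KO mouse 26 (exact permutation, adjusted P = 0.0476), a check added after the data were seen. Spearman's rho over the same 6 and 7 mice was 0.83 and 0.89 and did not pass (exact permutation, adjusted P = 0.35 and 0.0738). After the mean of each genotype was subtracted, Pearson's r was 0.85 and did not pass (exact permutation P = 0.0104, adjusted 0.0625). In MøFoxO1-KO mice Id1 rose with Hamp from mouse 26 through 27 and 28 to 29. In WT mice 23, 24 and 25, Hamp was 1736, 174 and 559 while Id1 was 87.5, 91.4 and 94.6. Among WT mice the relation therefore rested on mouse 22.

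Smad7, the inhibitory SMAD that BMP signalling induces, had 295, 185, 153 and 128 normalized counts in WT mice and 117, 208, 161 and 190 in MøFoxO1-KO mice. Pearson's r with Hamp was 0.78 (exact permutation P = 0.0244, adjusted 0.0487) and Spearman's rho was 0.86 (exact permutation, adjusted P = 0.0321). Without WT mouse 22 and MøFoxO1-KO mouse 26, the farthest from the Smad7 median, r was 0.63 (exact permutation P = 0.183), so the call rested on those mice. Within genotypes r was 0.78 (exact permutation, adjusted P = 0.0677).

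Tfrc ran the other way. Pearson's r between Hamp and Tfrc was -0.77 (exact permutation P = 0.0168, adjusted 0.0487) and Spearman's rho was -0.69 (exact permutation, adjusted P = 0.139). WT mouse 24 and MøFoxO1-KO mouse 26 combined the highest Tfrc with the lowest Hamp. Without them r was -0.34 over 6 mice (exact permutation P = 0.499), so the relation rested on those livers, and after the genotype means were subtracted it was -0.77 (exact permutation, adjusted P = 0.0833).

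The ligand and the inflammatory genes gave weaker relations. Bmp6 mRNA had an r of 0.21 with Hamp (exact permutation P = 0.636), Socs3, a STAT3 target, had -0.10 (exact permutation P = 0.805), and Saa1, an acute-phase gene, had 0.48 (exact permutation P = 0.220). With 8 mice these values do not show that no relation exists.

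**Figure D3:**
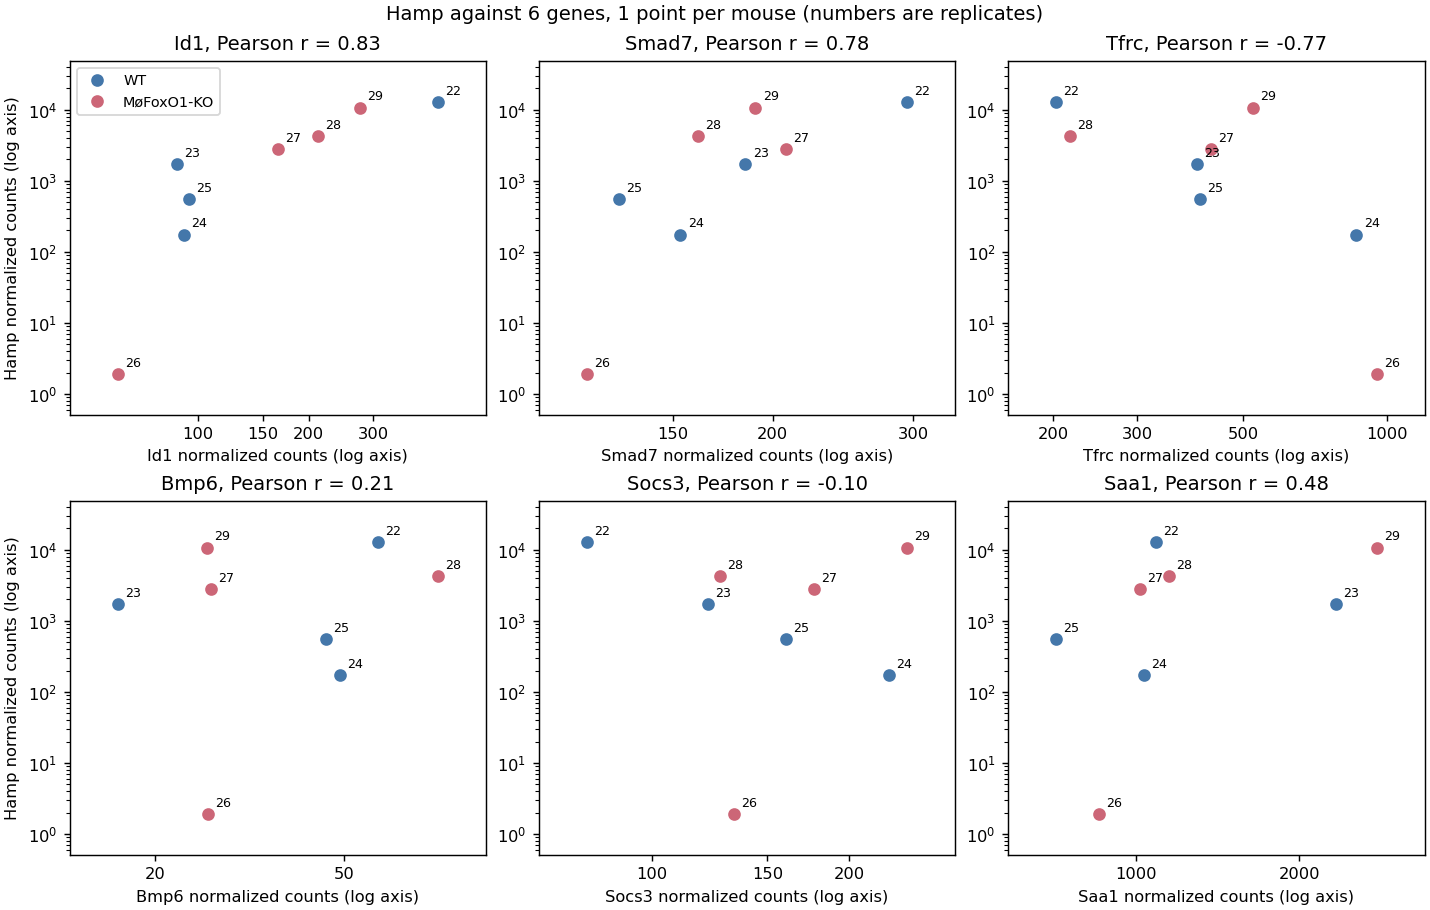
Normalized Hamp counts (vertical, log axis) against 6 genes (horizontal, log axes), with 1 point per mouse, its replicate number beside it and color for genotype. Id1 (r = 0.83) and Smad7 (r = 0.78) rise with Hamp, Tfrc (r = -0.77) falls with it, and MøFoxO1-KO mouse 26 lies far below the other 7 livers in every panel.

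The genes most like Hamp were then ranked by Pearson's r over the 8 mice among 10389 genes with a mean of at least 50 normalized counts, as a description without a test, since all points share the same libraries. The highest 5 were Calr3 (0.91), Gm4673 (0.89), Bnip2 (0.87), Id3 (0.86) and Dnajc9 (0.84). Calr3, Gm4673, Id3 and Dnajc9 were lowest in MøFoxO1-KO mouse 26 (28.8, 32.6, 361 and 71.9 normalized counts), the liver with the least Hamp. Bnip2 was lowest in WT mouse 24 (593). A ranking without mouse 26 was not made. Of the 6 BMP and SMAD target genes on the list, Id3 ranked 4, Id1 ranked 7, Smad7 ranked 21 and Atoh8 ranked 29 (r = 0.76), whereas Id2 ranked 364 (r = 0.51) and Smad6 ranked 6470 (r = -0.12). Hamp2 ranked 14 with an r of 0.79 but a Spearman's rho of 0.38, and Tfrc was 44 from the bottom. For Tfrc the highest 5 were Ajuba (0.98), Smc5 (0.89), Nemp1 (0.87), Sec13 (0.87) and Abi1 (0.86), and Slc39a14, a transporter of iron not bound to transferrin, ranked 8 (0.85).

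Around these 10 genes, 92 other iron genes in 9 lists were looked up, and 85 were tested. None passed the edgeR test with Benjamini-Hochberg adjustment, and the smallest adjusted P was 0.113, for Steap2. At an unadjusted P under 0.05 there were 10 higher (11.8%) and 12 lower (14.1%) in MøFoxO1-KO mice, beside 8.65% and 8.06% of all tested genes. Groups did not overlap for 6 genes above WT (7.06%, beside 5.0% of all tested genes) and 9 below (10.6%, beside 4.71%). DESeq2 with Benjamini-Hochberg adjustment named 7 of the 85, 4 higher and 3 lower, beside 4.02% of the genes to which it gave an adjusted P. The median log2 fold change was -0.03.

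In the hepcidin control list for BMP and SMAD signalling, 13 of 17 tested genes had negative log2 fold changes and 4 positive, with a median of -0.12. Fkbp1a, which holds BMP type I receptors inactive, had 1293 ± 113 normalized counts in WT and 957 ± 55.7 in MøFoxO1-KO mice without overlap, a log2 fold change of -0.43 (DESeq2, Benjamini-Hochberg adjusted P = 0.0166; edgeR, 0.121). The BMP type II receptor Acvr2a, at -0.47, did not overlap either. The list ran from -0.77 for Smad9 to 1.33 for Fgl1, a secreted liver protein known to restrain hepcidin. Fgl1 had 2650, 4390, 4525 and 5150 normalized counts in WT mice and 7455, 12199, 2909 and 19460 in MøFoxO1-KO mice (edgeR, Benjamini-Hochberg adjusted P = 0.212). The 6 BMP and SMAD target genes ran from -0.17 for Smad7 to 0.61 for Id2, and none reached an unadjusted P under 0.05.

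On the inflammatory arm, 4 of 8 tested genes were above 0 and 4 below. Il22ra1, the receptor chain for IL-22, an inducer of hepcidin in hepatocytes, had 20.6, 94.4, 42.5 and 28.9 normalized counts in WT mice and 14.4, 13.1, 3.80 and 12.3 in MøFoxO1-KO mice, with no overlap. This gave a log2 fold change of -2.09 (DESeq2, Benjamini-Hochberg adjusted P = 0.0112; edgeR, 0.131). Il1b, an inflammatory cytokine of macrophages, stood at the other end with 14.1, 14.7, 48.0 and 40.8 in WT and 45.1, 159, 28.5 and 235 in MøFoxO1-KO mice, a log2 fold change of 1.98 (DESeq2, Benjamini-Hochberg adjusted P = 0.0330; edgeR, 0.204). MøFoxO1-KO mice 27 and 29, highest for Il1b, were also the highest for the sum of Kupffer cell markers, at 9091 and 12622. Mouse 29 was highest of the 8 livers for the macrophage and monocyte sum (3312.5) and the lymphocyte sum (344) as well. Mouse 27 had a macrophage and monocyte sum of 2570, within the WT range of 1815 to 2814. The cell source of Il1b was not tested. Il6 itself had too few counts to be tested, as did Erfe.

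Among uptake and transport genes, 5 of 11 were above 0 and 6 below, from -1.69 for Lcn2, which binds iron-carrying siderophores, to 0.78 for the ferritin receptor Scara5. Lcn2 rested on WT mouse 23, which had 1873 normalized counts against 167 to 413 in the other 7 livers, and without it the value was -0.57. Scara5 moved to 1.95 without the same mouse and to 0.22 without MøFoxO1-KO mouse 26. Timd2, a receptor for heavy-chain ferritin in mice, had 1059 ± 206 normalized counts in WT and 1564 ± 134 in MøFoxO1-KO mice without overlap (log2 fold change 0.56, DESeq2, Benjamini-Hochberg adjusted P = 0.0377; edgeR, 0.142). Steap2, a metalloreductase, had 102 ± 17.4 and 55.5 ± 8.20, also without overlap (log2 fold change -0.88, DESeq2, Benjamini-Hochberg adjusted P = 0.0118; edgeR, 0.113).

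Haem scavenging and breakdown had 9 of 12 genes above 0, from -0.52 for the haem transporter Flvcr2 to 0.61 for Hpx. Hp and the porphyrin exporter Abcg2 lay above WT in every MøFoxO1-KO mouse, and Flvcr2 and the haem transporter Slc48a1 lay below. Abcg2 had 1938 ± 319 normalized counts in WT and 2782 ± 220 in MøFoxO1-KO mice (log2 fold change 0.52, DESeq2, Benjamini-Hochberg adjusted P = 0.0276; edgeR, 0.134). Hp had 69156 ± 7062 and 94944 ± 18944 (edgeR, Benjamini-Hochberg adjusted P = 0.237).

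For storage, export and the iron regulatory proteins the lists are short. Ncoa4, which delivers ferritin to lysosomes, had the lowest value of the storage list at -0.93, and it was -0.41 without WT mouse 23. The iron chaperone Pcbp2 lay below WT without overlap at -0.24, and its relative Pcbp1 was at 0.01. Cp and hephaestin (Heph), the oxidases that work with ferroportin, were at -0.33 and 0.15. The iron regulatory proteins Aco1 and Ireb2 were at -0.42 and -0.10. None of these passed the correction in edgeR or DESeq2.

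The mitochondrial iron, iron-sulphur and haem synthesis list had 15 of 23 genes above 0, from -0.45 for Alas1, the rate-limiting enzyme of haem synthesis in liver, to 0.46 for Fdx1. Alad and Urod, later enzymes of the same pathway, lay above WT in every MøFoxO1-KO mouse while Alas1 lay below in every one, as did the iron-sulphur assembly factor Isca1. Alad had 3453 ± 593 normalized counts in WT and 4741 ± 257 in MøFoxO1-KO mice (log2 fold change 0.46, DESeq2, Benjamini-Hochberg adjusted P = 0.0492; edgeR, 0.178). Urod was at 0.30 and Isca1 at -0.20.

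**Figure D4:**
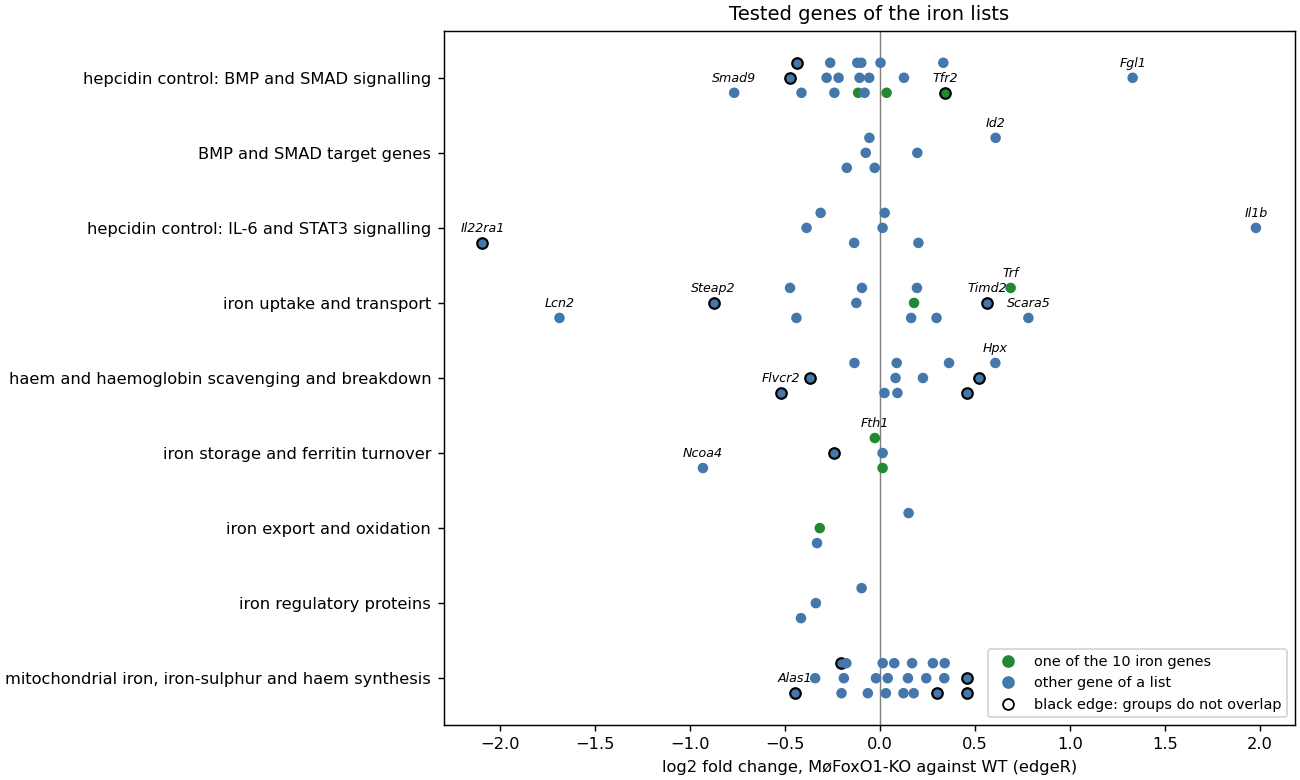
Log2 fold change (edgeR, MøFoxO1-KO against WT, 4 mice a group) of each tested gene in 9 iron lists, 1 point per gene, spread vertically within a list for legibility. Green points are among the 10 iron genes (the hepcidins belong to no list), blue points are other genes, and a black edge marks groups that do not overlap. Most points lie within 0.5 of 0, with Il22ra1 at -2.09 and Il1b at 1.98 at the ends.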

How the data were processed

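RNA prepared from aliquots of liver tissue of 8 mice was sequenced as poly-A-selected NEBNext libraries. The authors deposited raw read counts per Ensembl gene, per the file header with GRCm38 exons and summed exon lengths, without normalization. The submitters' processing notes name STAR, featureCounts and mm10. How strand and reads matching several genes were handled is not given in the sources used here. Each mouse is 1 library, so P values measure the spread between mice.

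Symbols came from GENCODE M21, and 102 of 106 listed names, older synonyms included, were found. Counts were filtered (filterByExpr, minimum count 10, minimum total 15), normalized by TMM and tested with glmQLFTest (edgeR 4.0.16, R 4.3.3), genotype being the only term, with Benjamini-Hochberg adjustment over all 13278 tested genes. The standard error was derived from the F statistic. Permutation tests were exact and two-sided (scipy 1.17.1). Correlations used log2(normalized count + 1). Sequences came from GENCODE M21 transcripts, placed on GRCm38 by their annotated exons, and RefSeq promoters (GRCm38.p6). The edgeR, DESeq2 and limma-voom fits were first tested on simulated counts in which 200 genes had been changed.

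The members and lists were chosen with earlier results of these data known. Named genes are the 10 members, listed genes that passed edgeR or DESeq2, that did not overlap or that bound a list's range, the 6 correlation partners, and the 5 genes most like Hamp and Tfrc. Others are named as chosen after their values were seen, or as values beside a result. Alternatives were DESeq2 1.42.0, its size factors, upper-quartile scaling, no filter, 10 counts in every mouse, limma-voom (limma 3.58.1), the robust fit, a length and GC offset, and leaving out each mouse.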

Additional observations from a re-analysis of the deposited data

Results flagged for a closer look

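Across 84 groups of 4 mice (42 genes), 6 groups held a mouse whose gap to its neighbour took up most of the group's range by Dixon's test on log2 normalized counts. Chance flags about 1 in 20 groups, or 5%. In MøFoxO1-KO mice, mouse 26 stood lowest for Hamp (1.92 normalized counts) and Urod (1811), and mouse 28 stood highest for Bmp6 (78.8) and lowest for Il22ra1 (3.80). In WT mice, mouse 22 stood highest for Id1 (451) and lowest for Hfe (731). The causes were not tested.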

How the results depend on the processing

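Counts of genes past the adjusted P of 0.05 stayed at 0 in each edgeR and limma-voom setting and each fit without 1 mouse, for the 10 iron genes and for the 85 others. DESeq2 gave 1 (Trf) and 7. The Hamp log2 fold change was -0.72 in limma-voom and -0.24 with the length and GC offset, and -0.70 to 2.43 over fits without 1 mouse. For the 2 hepcidin genes summed it was -0.61, -0.29 and -0.75 to 2.07. Both could not be fitted where 10 counts were required in every mouse, since mouse 26 had 6 in all.

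Without 1 mouse, the range was -0.27 to 0.66 for Tfrc, -0.17 to 0.59 for the Tfrc to Fth1 ratio, -0.071 to 0.16 for Hfe, -0.70 to 0.082 for Bmp6, -0.071 to 0.015 for Fth1, -0.031 to 0.063 for Ftl1, -0.32 to 0.12 for Smad7, -0.061 to 0.069 for Pcbp1, -0.20 to 0.37 for Heph, -0.15 to 0.0041 for Ireb2, -0.32 to 0.96 for Id1, -0.025 to 0.50 for Socs3 and -0.36 to 0.61 for Saa1. The offset gave -0.20 for Ftl1, -0.10 for Pcbp1 and -0.32 for Saa1, and limma-voom gave 0.15 for Id1. Of the 10 exact tests of normalized counts 1 reached P under 0.05 (Tfr2), and 0 without any 1 mouse, where 3 against 4 mice allow no P under 0.0571. Of the 6 relations with Hamp, 3 passed by Pearson's r in all mice, 0 without the 2 farthest mice and 0 with genotype means subtracted. Without mouse 26, 1 passed by Pearson's r, and r with Bmp6 was -0.027.

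The offset lowered Fth1 to -0.33 (edgeR, Benjamini-Hochberg adjusted P = 0.304), beyond the interval given above. Precision is limited by 4 mice a group and, for Hamp2 and Bmp6, by low counts. The mice are littermates, but the sample labels give no litter or pairing, so no paired or litter-blocked analysis was possible.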

Other observations

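Alas2, the erythroid enzyme that starts haem synthesis and whose mRNA carries an iron-responsive element, was named after its values were seen. It had 2385 normalized counts in MøFoxO1-KO mouse 26, the liver with 2 Hamp reads, 1530 in mouse 27, 329 in mouse 28 and 452 in mouse 29, against 301 to 520 in the 4 WT mice, so the groups overlapped. The 7 tested erythroid markers summed to 6449 to 23361 in WT and 8275 to 17027 in MøFoxO1-KO mice, and WT mouse 25, with the highest sum, had 520 normalized Alas2 counts.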
